A study of Mus musculus with 14 samples.

Results

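A set of 10 genes of mechanosensing was followed in the retinal veins of mice with and without inherited glaucoma: the ion channels Piezo1, Trpv4 and Pkd2, the transcriptional regulators Yap1, Wwtr1 and Tead1, and the YAP target genes Ccn1, Ccn2, Ankrd1 and Amotl2. They were taken by symbol, 10 of the 40123 gene symbols in the deposited expression table, and each was found there. The glaucoma veins came from 9 DBA/2J mice, an inbred strain in which pigment dispersion raises the pressure in the eye with age. The 5 control veins came from DBA/2J-Gpnmb+/SjJ mice, which carry a working Gpnmb allele and are labelled normotensive; both strains share the mutant Tyrp1 allele of the DBA/2J background. All mice were 9 months old. Each library held the 4 major veins of 1 mouse, dissected under a fluorescent scope; the dye was sodium fluorescein, 0.33 mg per g body weight, given 5 minutes earlier. No transgene or cell sort is stated, so RNA of every cell left on the vein was sequenced.

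Piezo1 and Trpv4 are calcium-permeable channels, Piezo1 opened directly by membrane tension and Trpv4 by cell swelling, warmth and lipid products. Pkd2, polycystin 2, is a cation channel that works with Pkd1 and is tied to flow sensing. YAP (Yap1) and TAZ (Wwtr1) are paired coactivators that enter the nucleus on stiff or stretched support and bind DNA through TEAD factors such as Tead1. The Hippo kinases Lats1 and Lats2 hold them in the cytoplasm. Ccn1 and Ccn2 encode secreted matricellular proteins, Ankrd1 a muscle ankyrin repeat protein and Amotl2 an angiomotin that in turn binds and restrains YAP. All are standard transcriptional readouts of YAP and TAZ. In endothelium this system takes part in vessel growth and barrier function, and in the retina Trpv4 and Yap1 are also expressed by Muller glia.

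Gene promoters were read for the TEAD motif because YAP and TAZ reach their targets through TEAD factors. The RefSeq promoter table for GRCm38.p6 held 8 of the 10 members, and the 250 bases before each start were searched on both strands for the letters GGAATG (TEAD) and TGANTCA (AP-1). The TEAD letters were present for Pkd2, Yap1, Wwtr1, Ccn1, Ankrd1 and Amotl2 and not for Piezo1 or Trpv4. They were present in 12.6% of all 32851 promoters in the table. The AP-1 letters, which no member held, were present in 6.75%. The promoters of the 3 members that rose in DBA/2J veins and of Ccn1, a classic YAP target, are shown in gene direction with the TEAD letters in capitals (CATTCC is GGAATG on the other strand). They lie at chr3:57575911-57576160 (minus strand) for Wwtr1, chr5:104459207-104459456 (plus strand) for Pkd2, chr9:102717554-102717803 (plus strand) for Amotl2 and chr3:145649986-145650235 (minus strand) for Ccn1. The match begins 136 bases before the start in Wwtr1 (170 before its other start in the table), 43 in Pkd2, 65 in Amotl2 and 103 in Ccn1. A match of these letters describes the sequence and is not a binding site shown by these data.
Wwtr1: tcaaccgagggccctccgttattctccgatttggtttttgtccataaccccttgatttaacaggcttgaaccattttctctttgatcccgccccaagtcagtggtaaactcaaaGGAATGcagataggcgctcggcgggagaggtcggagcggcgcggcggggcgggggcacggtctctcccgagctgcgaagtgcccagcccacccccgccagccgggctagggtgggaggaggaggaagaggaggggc
Pkd2: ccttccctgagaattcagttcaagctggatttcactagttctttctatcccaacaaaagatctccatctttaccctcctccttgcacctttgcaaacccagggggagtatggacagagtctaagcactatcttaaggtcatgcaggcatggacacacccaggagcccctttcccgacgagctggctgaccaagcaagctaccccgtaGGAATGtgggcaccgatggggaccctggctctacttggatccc
Amotl2: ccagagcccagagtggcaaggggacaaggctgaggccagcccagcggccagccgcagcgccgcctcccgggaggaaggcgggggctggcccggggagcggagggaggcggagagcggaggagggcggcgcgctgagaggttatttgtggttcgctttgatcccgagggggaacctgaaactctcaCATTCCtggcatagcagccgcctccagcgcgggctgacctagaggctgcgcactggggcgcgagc
Ccn1: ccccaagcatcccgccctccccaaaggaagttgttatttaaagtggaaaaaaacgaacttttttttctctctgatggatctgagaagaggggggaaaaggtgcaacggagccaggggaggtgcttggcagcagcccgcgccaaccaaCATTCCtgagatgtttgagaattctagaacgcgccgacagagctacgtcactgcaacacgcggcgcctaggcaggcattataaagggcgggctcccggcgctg

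Values are scaled estimated counts per gene, and differences are on the log2(value + 1) scale. Scaled totals lay between 14836190 and 19255476 in DBA/2J libraries and between 18196716 and 22193399 in control libraries, and estimated depth between 8949499 and 33851455 reads over all 14, with DBA/2J samples 1 and 4 the shallowest. Gpnmb stood at 65.4 to 516 in DBA/2J veins and at 1409 to 3190.1 in control veins, so each library matched its label. Markers of endothelium were present in every library (0.129% to 0.462% of counts in DBA/2J, 0.124% to 0.197% in control), but so were 9 rod markers (1.93% to 5.16% in DBA/2J, 1.94% to 3.53% in control). Lens crystallins and other lens genes took 0.00147% to 0.982% of counts in DBA/2J and 6.88% to 15% in control. The library numbers of the submitters do not interleave between the strains (31 to 39 in DBA/2J, 16 to 30 in control), so library order and strain cannot be told apart. In whole veins, fewer cells of a type and less RNA per cell cannot be told apart either.

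Wwtr1, Pkd2 and Amotl2 rose in DBA/2J veins, and none of the 10 members fell. Thus 3 of 10 members passed as higher, by 1.92-fold, 1.66-fold and 1.82-fold, at an adjusted p under 0.05 (limma over all genes). Of all 29166 genes tested, 12.1% passed as higher and 7.2% as lower; among 13426 coding genes averaging 50 scaled counts or more, 22.4% passed as higher and 9.25% as lower. For 10 genes, 3 calls lie near the 22.4% of those coding genes. At an unadjusted p under 0.05, 5 members were higher and 0 lower. No share over all genes is given at an unadjusted p, here or below, so such counts have no background. When each library was scaled to its own total, 5 members passed as higher, Yap1 and Ccn2 added, where 18.6% of all genes passed as higher and 4.48% as lower. Against control samples 4 and 5 alone 0 members passed (3 higher and 0 lower at an unadjusted p under 0.05), where 5.97% of genes passed as higher and 2.6% as lower. The median difference of the members was 0.74 on the log2 scale, against 0.05 for all genes tested. Those genes include weakly expressed and noncoding ones, and no median was taken over the better-expressed coding genes alone. With a smooth trend on transcript length and GC removed from each library, the member median was 0.29. Under that setting 0 members passed as higher and 1 as lower, where 5.34% of all genes passed as higher and 7.25% as lower. No member's groups were free of overlap, against 2.91% of all genes with every DBA/2J library higher and 2.31% with every DBA/2J library lower.

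**Figure D1:**
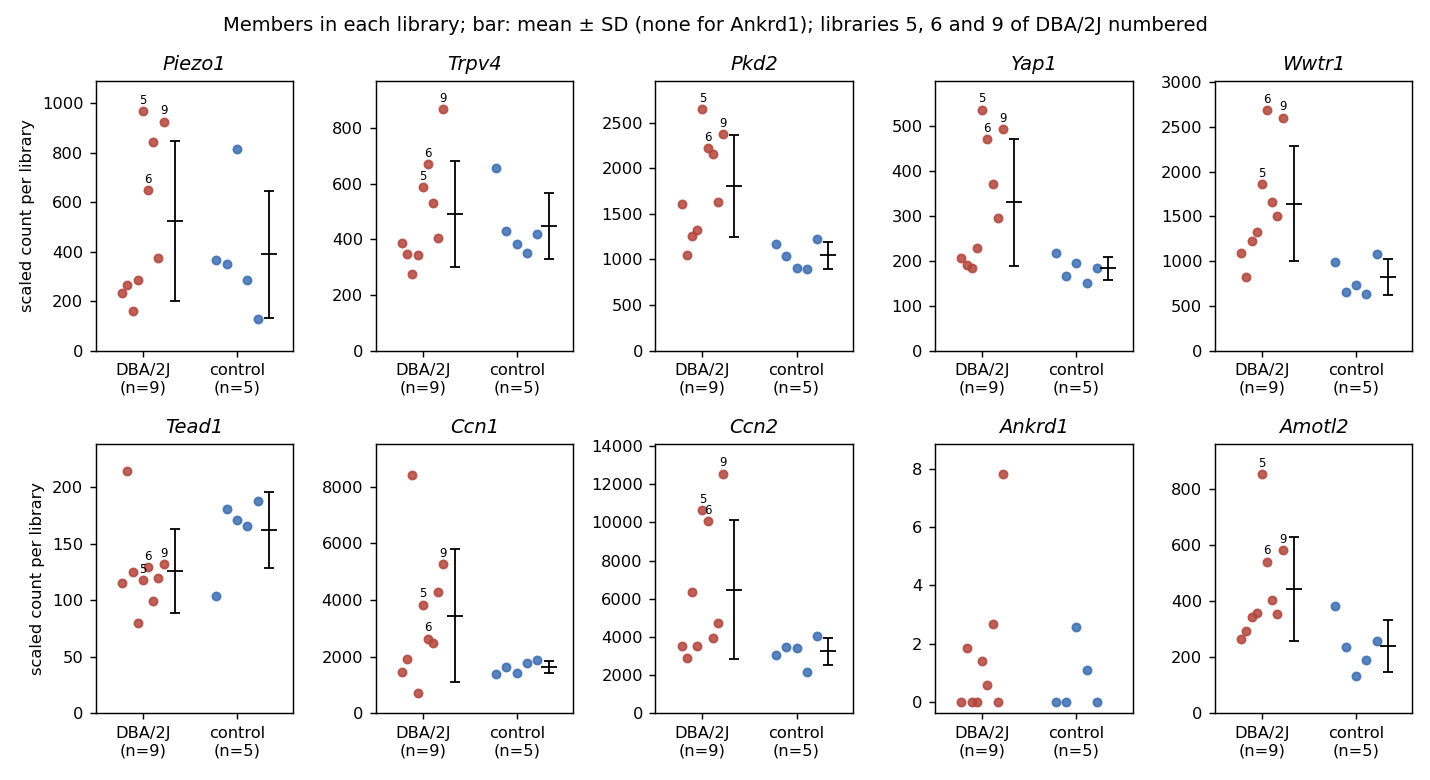
Scaled counts (y axis) of each member in each DBA/2J library (red, n = 9) and each control library (blue, n = 5). Bars are mean and SD. Samples 5, 6 and 9 of DBA/2J carry their number. Ankrd1 has neither bars nor numbers. Wwtr1 and Pkd2 exceed the highest control in 8 of 9 DBA/2J libraries, while Trpv4 and Piezo1 overlap widely.

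Among the channels, Pkd2 (chr5:104459450-104505819, plus strand, GRCm38) was the one that passed. In DBA/2J veins it stood at 1053 at the lowest, 1628 at the median and 2648 at the highest, against 1164, 1036, 910.3, 897 and 1229 scaled counts in control samples 1 to 5. Thus 8 of 9 DBA/2J libraries lay above the highest control, with sample 2 inside the control range. The difference was 0.74 on the log2 scale (SE 0.20, adjusted p = 0.0181, limma). The call was lost without control sample 3 or 4 (adjusted p = 0.0521 and 0.0512), and with a smooth trend on transcript length and GC removed from each library the difference was 0.22 (adjusted p = 0.396).

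Piezo1 (chr8:122481698-122551329, minus strand), the tension-gated channel, varied 6.06-fold inside DBA/2J and 6.37-fold inside control. It ran from 159 through a median of 374 to 967 in DBA/2J veins, against 366, 350.1, 816, 287 and 128 in control samples 1 to 5. DBA/2J samples 5, 7 and 9 lay above the highest control and the other 6 inside the control range. The difference was 0.39 on the log2 scale (95% interval -0.56 to 1.35, adjusted p = 0.594, limma), so neither direction was resolved. Piezo1 shares its locus with Ctu2 and Gm20388 on the opposite strand, as do Yap1, Wwtr1, Tead1 and Ccn2 with predicted or little-known genes. On the same strand, Gm26497 overlaps Piezo1 and Gm44462 overlaps Tead1. These overlaps are of whole gene spans, introns included. Whether such pairs share transcript sequence, and so reads, was not tested. Trpv4 (chr5:114622152-114658421, minus strand) had the smallest difference of the channels. It ran from 274 through 406 to 868 in DBA/2J veins, against 656, 431, 382, 353 and 419 in control veins, with 2 DBA/2J libraries above and 3 below the control range. The difference was 0.08 (95% interval -0.44 to 0.59, adjusted p = 0.864, limma), an interval that leaves room for a modest change in either direction.

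Wwtr1 (chr3:57455649-57575910, minus strand), the gene of TAZ, gave the largest difference of the members. In DBA/2J veins it stood at 827 at the lowest, 1504 at the median and 2685 at the highest, against 989, 658, 731, 638 and 1083 in control samples 1 to 5. All DBA/2J libraries but sample 2 exceeded the highest control. The difference was 0.94 on the log2 scale (SE 0.25, adjusted p = 0.014, limma), and it passed without any 1 of the 14 libraries (adjusted p up to 0.044). It did not pass after removal of the length and GC trend (0.58, adjusted p = 0.128), nor against control samples 4 and 5 alone (0.89, adjusted p = 0.143).

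Yap1 (chr9:7931999-8004596, minus strand) had a positive difference that did not pass. It ran from 183 through 295 to 536 in DBA/2J veins, against 218, 167, 196, 151 and 185 in control veins. The controls lay close together, and DBA/2J samples 4 to 9 were above them while samples 1 to 3 were among them. The difference was 0.74 (SE 0.27, adjusted p = 0.0615, limma), with a 95% interval of 0.17 to 1.30. It passed without DBA/2J sample 1, 2 or 3 (adjusted p = 0.0475, 0.0376 and 0.0352). Per library, the ratio of Wwtr1 to Yap1 counts lay between 3.47 and 6.69 in DBA/2J and between 3.73 and 5.84 in control, so the balance of the paired coactivators overlapped between strains.

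Tead1 (chr7:112679318-112906807, plus strand), the DNA-binding partner, had a lower mean in DBA/2J veins, the opposite sign from its coactivators. It ran from 80.2 through 119.6 to 214 in DBA/2J veins, against 104, 181, 171, 166 and 188 in control veins. Sample 2 of DBA/2J, with 1 of the 3 lowest DBA/2J values for the other 8 members measured well, had the highest Tead1 of all 14 libraries. The other DBA/2J libraries lay below control samples 2 to 5. The difference was -0.38 (SE 0.22, adjusted p = 0.247, limma). After removal of the length and GC trend it was -0.84 and passed (adjusted p = 0.0264), the one member to pass under that setting, where 7.25% of all genes passed as lower and 5.34% as higher. Tead1 also had little depth behind it, between 47 and 248 estimated reads per library. Of its relatives, Tead3 stood at 183 ± 35.2 in DBA/2J and 137 ± 33.5 in control (SD, n = 9 and n = 5; limma, adjusted p = 0.133). Tead2 averaged 76.8 in DBA/2J and 85.5 in control (adjusted p = 0.685), and Tead4 24.8 in DBA/2J and 18.4 in control (adjusted p = 0.954; limma for all 3).

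**Figure D2:**
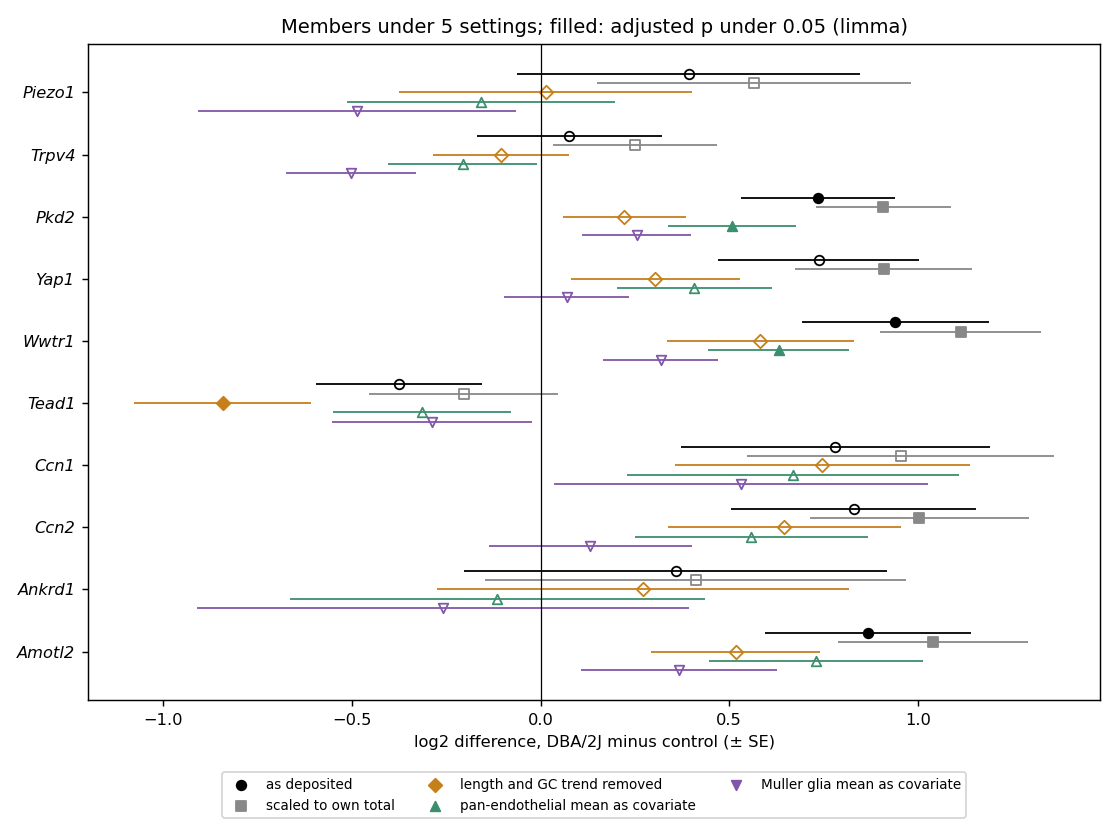
Log2 difference, DBA/2J minus control, with its standard error (x axis) for each member under 5 settings; filled symbols passed at an adjusted p under 0.05 (limma). Wwtr1 lies farthest right as deposited (0.94), and Tead1 is the one filled symbol left of 0, after removal of the length and GC trend (-0.84).

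Amotl2 (chr9:102716672-102733418, plus strand), the angiomotin that binds YAP, was the one target gene that passed. In DBA/2J veins it stood at 264 at the lowest, 358 at the median and 854 at the highest, against 383, 238, 134, 192 and 259 in control samples 1 to 5. Samples 5, 6, 7 and 9 of DBA/2J lay above every control and the other 5 inside the control range. The difference was 0.87 (SE 0.27, adjusted p = 0.0334, limma). It is the least stable of the 3 calls: it was lost in 5 of 14 leave-outs (without DBA/2J sample 6 or 9 or control sample 2, 3 or 4, where the highest adjusted p was 0.114) and with the length and GC trend removed (0.52, adjusted p = 0.134).

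Ccn1 and Ccn2, the most abundant members, had higher medians in DBA/2J veins but did not pass. Ccn1 (chr3:145646976-145649981, minus strand) ran from 726 through 2638 to 8422 in DBA/2J veins, against 1389, 1633, 1435, 1791 and 1875 in control veins. The 5 controls agreed within 1.35-fold, whereas DBA/2J libraries spanned 11.6-fold: sample 4 was below all controls, sample 1 among them, and the other 7 above. The difference was 0.78 (SE 0.41, 95% interval -0.08 to 1.64, adjusted p = 0.193, limma). It passed when sample 4 was left out (1.02, adjusted p = 0.0393), and 1.19 was the value without samples 1 and 4, the shallowest libraries (adjusted p = 0.014), a setting chosen after the data were seen. Ccn2 (chr10:24595442-24598683, plus strand) ran from 2903 through 4749 to 12553 in DBA/2J veins, against 3071, 3454, 3444, 2172 and 4068 in control veins. Samples 3, 5, 6, 8 and 9 lay above every control. The difference was 0.83 (SE 0.32, 95% interval 0.15 to 1.51, adjusted p = 0.0816, limma), and it passed without DBA/2J sample 2 (0.95, adjusted p = 0.0416), and when libraries were scaled to their total without lens genes (0.85, adjusted p = 0.0445).

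Ankrd1 (chr19:36111961-36120099, minus strand), an abundant YAP target in stretched muscle, was close to undetected. It had 0 counts in 4 of 9 DBA/2J libraries and 3 of 5 control libraries, and at most 7.82 (DBA/2J sample 9) and 2.58 (control sample 3). Summed over libraries this is 15 estimated reads in DBA/2J and 3 in control, a ratio of 2.84 per read sequenced with an exact 95% counting interval of 0.803 to 15.3. That interval pools reads over mice and leaves out the variation between them, and 7 of the 15 DBA/2J reads came from sample 9. A difference in Ankrd1 was not detectable at this depth.

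Per kilobase of the longest coding transcript, a scale on which genes can be ranked, Ccn2 and Ccn1 stood far above the rest, at 2602 ± 1467 and 1709 ± 1165 scaled counts per kb in DBA/2J (SD, n = 9) and 1302 ± 279.8 and 805 ± 106 in control (SD, n = 5). Wwtr1 and Pkd2 followed at 349.8 ± 137 and 346 ± 107 in DBA/2J and 175 ± 43.2 and 201 ± 28.5 in control, and Trpv4 at 152 ± 59.4 and 139 ± 37.2. Amotl2, Yap1 and Piezo1 formed a lower group that their spread does not separate, at 103, 79.2 and 63.6 per kb in DBA/2J and 55.7, 44.0 and 47.4 in control. Tead1 came next at 12.6 ± 3.69 and 16.2 ± 3.34, and Ankrd1 last.

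Several members were high or low in the same DBA/2J mice. Over the 9 members other than Ankrd1, sample 9 held 1 of the 3 highest DBA/2J values for all 9, sample 5 for 7 and sample 6 for 7. Samples 1 to 4 held 1 of the 3 lowest values for 7, 8, 6 and 5 members. With group means taken out, Pearson's r over the 14 libraries was 0.91 between Yap1 and Pkd2, 0.89 between Yap1 and Trpv4 and 0.86 between Yap1 and Wwtr1. Piezo1 was at 0.80 with Yap1 but at 0.47 with Wwtr1, 0.45 with Ccn2 and 0.37 with Amotl2. Ccn1 reached at most 0.57, with Ccn2, and Tead1 at most 0.30, with Ccn1. These coefficients describe libraries that share depth and cell content and carry no test. The SD of log2 values was larger in DBA/2J than in control for 8 of these 9 members. Among 14952 genes tested with a mean of at least 50 scaled counts, it was larger in 36.4%. Amotl2 was the exception (SD 0.54 in DBA/2J, 0.56 in control). For Piezo1 (0.97 in DBA/2J, 0.95 in control) and Tead1 (0.37 and 0.34) the SDs were nearly equal as well.

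Several cell type marker lists moved along with this pattern, and the rod list did not. Among DBA/2J libraries, rod markers had their lowest mean log2 value in sample 9 (14.44) and their highest in samples 4 and 3 (15.75 and 15.50). In control they lay between 14.40 and 15.30. The mean log2 value of 18 pan-endothelial markers lay between 9.59 and 11.66 in DBA/2J and between 9.68 and 10.51 in control, with 6 markers higher and 0 lower. It was highest in DBA/2J samples 9, 7 and 6 (11.66, 11.48 and 11.21). The 10 Muller glia markers lay between 12.23 and 13.23 in DBA/2J and between 12.01 and 12.46 in control (4 higher, 0 lower), with samples 9, 6 and 5 on top (13.23, 13.06 and 12.98). Pericyte markers lay between 8.01 and 10.19 in DBA/2J and between 8.04 and 9.31 in control (2 of 10 higher, 0 lower). Smooth muscle markers lay between 6.53 and 8.27 in DBA/2J and between 7.14 and 7.77 in control (1 of 10 higher, 1 lower). Macrophage and microglia markers lay between 7.24 and 9.81 in DBA/2J and between 6.99 and 7.62 in control (3 of 10 higher, 0 lower). Beside these counts, 22.4% of the coding genes averaging 50 scaled counts or more passed as higher and 9.25% as lower. No marker of these lists was at 0 in every library. With the mean of the pan-endothelial markers in the fit the differences of Wwtr1 and Pkd2 were 0.63 and 0.51 and still passed (adjusted p = 0.0239 and 0.0417, limma), and that of Amotl2 was 0.73 (adjusted p = 0.08); 11.3% of genes passed as higher and 8.74% as lower there. With the Muller glia mean in the fit 0 members passed in limma (0 higher and 1 lower at an unadjusted p under 0.05), with 0.32 for Wwtr1, 0.25 for Pkd2 and 0.37 for Amotl2, where 6.02% of genes passed as higher and 6.86% as lower. The lens mean separates the strains without overlap (3.96 to 12.34 in DBA/2J, 14.68 to 15.90 in control), so lens RNA and strain cannot be told apart.

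**Figure D3:**
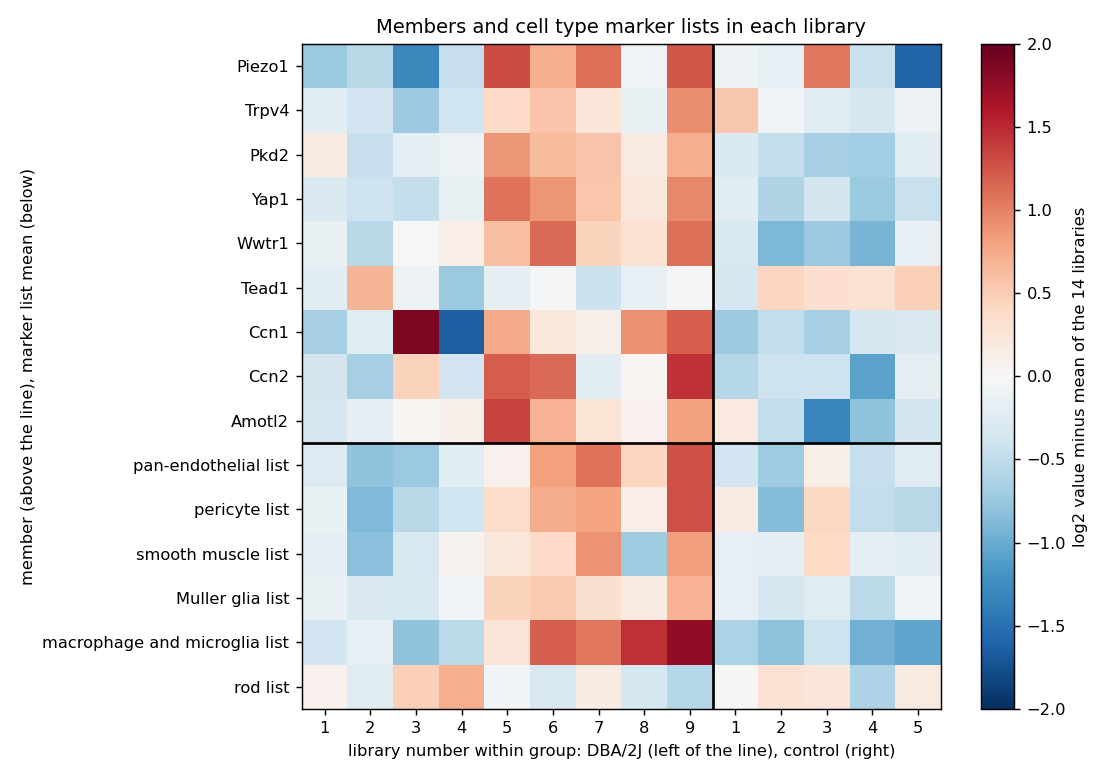
Log2 value of each member but Ankrd1 (above the line) and mean log2 value of each marker list (below it) minus its mean over the 14 libraries, with DBA/2J libraries left of the vertical line and control libraries right of it. Samples 5, 6 and 9 of DBA/2J are red for most members and lists; Ccn1 peaks in sample 3 and Tead1 in sample 2.

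The genes whose log2 values followed a member most closely over the 14 libraries, with group means taken out, were sought among coding genes averaging 50 scaled counts or more. For Yap1 they were Gm2a, Ctdsp2 and Creb3l2 (Pearson's r of 0.963, 0.960 and 0.957), and Gm2a also led for Pkd2 (0.949). For Wwtr1 they were Selenop, Gpd2 and Abhd4 (0.957, 0.956 and 0.945). For Trpv4 they were Slc16a9, Anxa11 and Stra6 (0.958, 0.954 and 0.952), and for Piezo1 Plxnb2, Pcolce2 and Itga7 (0.952, 0.943 and 0.940). Amotl2 was followed by Sft2d2, Oat and Nnt (0.962, 0.961 and 0.954). Ccn1 was followed by Apold1, an immediate early gene of endothelium, Dusp1, an immediate early phosphatase, and Rgcc (0.916, 0.881 and 0.858), and Ccn2 by Arhgap23, Bub3 and Ldlrad4 (0.904, 0.876 and 0.873). Tead1 had looser matches, led by Trim46 (0.871), and with so few reads Ankrd1 gave no usable pattern. The 12 immediate early genes had a mean log2 value of 10.78 in DBA/2J sample 3, where Ccn1 peaked, and of 9.39 in sample 4, where it was lowest. Their mean was as high in samples 8 and 9 (10.80 and 10.79), where Ccn1 stood at 4298 and 5269, below its peak of 8422.

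Counts for 6 related gene lists are described beside the background, in which 12.1% of all genes tested and 22.4% of the better-expressed coding genes passed as higher. The lists were not tested against it or against each other. Their counts at an unadjusted p have no such background here. Of 24 Hippo kinases and regulators, 11 rose, 13 did not pass and none fell (45.8% higher, against 22.4% of those coding genes; median difference 0.52, against 0.05 for all genes). At an unadjusted p under 0.05, 13 were higher and 0 lower. The list shares Lats2 and Ptpn14 with the YAP target list. Lats2, a kinase that phosphorylates YAP and is itself a YAP target, rose to 299 ± 67.9 in DBA/2J, against 114 ± 56.7 in control (SD, n = 9 and n = 5; difference 1.46, adjusted p = 0.00123, limma). Frmd6, an upstream activator of the kinases, stood at 347 ± 118 in DBA/2J and 121 ± 47.9 in control (1.51, adjusted p = 0.00246). Wwc2, a scaffold of the kinases, and Taok2, a kinase above them, rose by 0.84 and 0.77 (adjusted p = 0.00136 and 0.00161). Lats2 and Frmd6 also passed after removal of the length and GC trend (adjusted p = 0.00546 and 0.0133), where Wwc2 and Taok2 did not (0.0748 and 0.0548). Under that setting 4 regulators passed as higher and 1, Amotl1, as lower, and the median of the list was 0.31. Of all genes, 5.34% passed as higher and 7.25% as lower there. Shares of the better-expressed coding genes were taken only for the values as deposited. Counts under other settings, of members or of this list and those below, have no such background.

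Of 18 other YAP and TAZ targets, 6 rose and none fell (33.3% higher, against 22.4% of the better-expressed coding genes; median 0.39), and at an unadjusted p under 0.05 Dock5 was lower. Besides Lats2, Axl, a receptor tyrosine kinase, stood at 325 ± 151 in DBA/2J and 123 ± 36.5 in control (1.31, adjusted p = 0.00879, limma). Tgfb2, a ligand of the TGF-beta family, and Rbms3, an RNA-binding protein, rose by 0.76 and 0.80 (adjusted p = 0.012 and 0.0122). With the length and GC trend removed Axl still passed (0.92, adjusted p = 0.0243), and Tgfb2 and Rbms3 did not (0.26 and 0.55, adjusted p = 0.313 and 0.069). Dock5, a guanine exchange factor of Rac, had 106 ± 84.7 in DBA/2J and 206 ± 86.2 in control and missed the threshold (-1.15, adjusted p = 0.0527). After removal of the length and GC trend the list had 2 genes higher, 2 lower (Dock5 and Ccdc80) and a median of 0.03. Among all genes, 5.34% were higher and 7.25% lower under that setting.

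Of 18 other mechanosensitive channels and their partners, 5 rose and none fell (27.8% higher, a share near the 22.4% of the better-expressed coding genes; median 0.49; 8 higher and 0 lower at an unadjusted p under 0.05). With the length and GC trend removed the list had 2 genes higher, 1 lower (Lrrc8a, -0.52, adjusted p = 0.0208, limma) and a median of 0.15. Among all genes, 5.34% were higher and 7.25% lower under that setting. Pkd1, the partner of the member Pkd2, had the lowest p and stood at 511 ± 121 in DBA/2J and 232 ± 69.1 in control (1.16, adjusted p = 0.00182, limma; 0.92 after removal of the length and GC trend, adjusted p = 0.0121). The osmosensitive channel gene Tmem63c, Tmem87a, and Kcnk2, the stretch-activated potassium channel TREK-1, rose by 0.97, 0.82 and 0.81 (adjusted p = 0.0123, 0.0148 and 0.0369). Tmem87a kept its call with the length and GC trend removed (0.78, adjusted p = 0.0342), whereas Tmem63c and Kcnk2 lost theirs (0.68 and 0.46, adjusted p = 0.114 and 0.281). Kcnk2 also missed the threshold in 9 of 14 leave-outs and Tmem87a in 2. Piezo2, the relative of Piezo1 in sensory neurons, was at 17.7 ± 13.8 in DBA/2J and 23.7 ± 11.2 in control (adjusted p = 0.576).

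**Figure D4:**
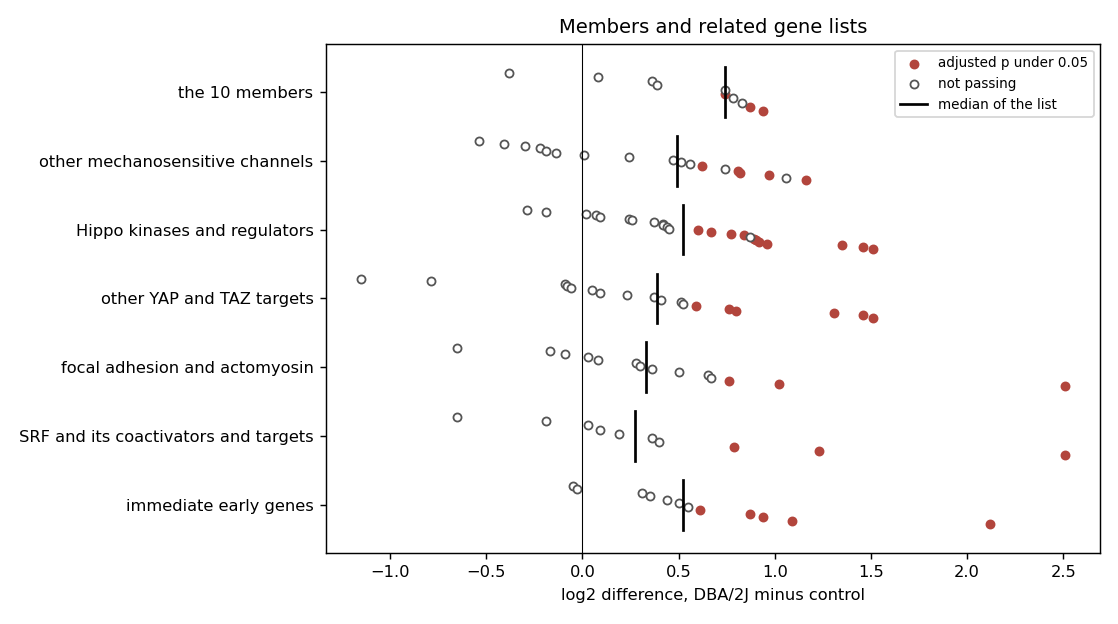
Log2 difference, DBA/2J minus control (x axis), of each of the 10 members and of each gene in 6 related lists (y axis, 1 point per gene); red points passed at an adjusted p under 0.05 (limma) and vertical bars are medians. Every red point lies right of 0, and 11 of 24 Hippo kinases and regulators are red.

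Of 14 genes of focal adhesion and actomyosin, through which cells sense support, 3 rose and none fell (21.4% higher, no more than the 22.4% of the better-expressed coding genes; median 0.33; 6 higher and 0 lower at an unadjusted p under 0.05). Vcl, vinculin, ran from 719 through 1702 to 3253 in DBA/2J, against 34.3 to 754 in control (2.51, adjusted p = 0.00597, limma), with control sample 3 the lowest. The call passed without any 1 of the 14 libraries (adjusted p up to 0.0181). Rock2, a kinase that drives actomyosin contraction, and Itgb1, integrin beta 1, rose by 0.76 and 1.02 (adjusted p = 0.002 and 0.02), and Rock1 did not pass (-0.17, adjusted p = 0.436). With the length and GC trend removed Rock2 passed (0.50, adjusted p = 0.023), Itgb1 did not (0.69, adjusted p = 0.106) and Rock1 passed as lower (-0.37, adjusted p = 0.0415). The list then had 2 genes higher, 1 lower and a median of 0.06, where 5.34% of all genes passed as higher and 7.25% as lower. Itgb1 also did not pass with the Muller glia mean in the fit (0.29, adjusted p = 0.301) and in 2 of 14 leave-outs. Of 10 genes of the SRF list, the other stretch-driven transcription route, Srf, Actb and Vcl rose, against 22.4% of the better-expressed coding genes (3 of 10, median 0.28; 3 higher and 0 lower at an unadjusted p under 0.05), Srf by 0.79 and Actb by 1.23 (adjusted p = 0.0279 and 0.0228), calls lost in 4 and 3 of 14 leave-outs. Of 12 immediate early genes, the class to which Ccn1 belongs, 5 rose and none fell (41.7% higher, against 22.4% of the better-expressed coding genes; median 0.52; 5 higher and 0 lower at an unadjusted p under 0.05). Atf3, a stress-induced transcription factor, led at 699 ± 132 in DBA/2J and 168 ± 59.6 in control (2.12, adjusted p = 3.38e-05, limma), followed by Jun, Nr4a1 and Egr1 at 0.87, 1.09 and 0.94 (adjusted p = 0.00367, 0.012 and 0.0281). Egr1 did not pass with the length and GC trend removed (0.59, adjusted p = 0.173) or in 2 of 14 leave-outs. Under that length and GC setting the immediate early list had 3 genes higher, 0 lower and a median of 0.48. The SRF list had 3 higher, 0 lower and a median of 0.02. Fos had 750.2 ± 326 in DBA/2J and 566 ± 206 in control and did not pass (0.35, adjusted p = 0.508).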

How the data were processed

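Retinal veins were profiled by RNA sequencing from roughly 100 pg of RNA (integrity number above 9), reverse transcribed with SMART-Seq v4 and made into Nextera XT libraries, per the labels' protocols. Per the series design text, kallisto quantified reads on GRCm38 with GENCODE M23; GRCm39 stands beside kallisto and sleuth in the submitters' processing notes, which leaves the build unsettled. The deposited signal values are, as far as they show, kallisto estimated counts per gene symbol after scaling of each library by a constant of its own, whose derivation the sources do not state. Between 19.0% and 22.1% of values were whole reads (tolerance 0.01), so whole reads were not recovered and no count test was run. Depth was estimated as the scaled total over the step between low values; it covers counting error only.

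Of 40149 rows, 26 with symbols turned into dates (at most 0.201% of a library) were left out. GENCODE M21 (GRCm38) supplied gene positions, biotypes, lengths and GC for 39019 symbols directly and 113 through older symbols. The test was limma 3.58.1 with a mean trend (R 4.3.3) on log2(value + 1) of genes reaching 1 in 5 or more libraries, group the only term, two-sided, Benjamini-Hochberg over all genes tested, threshold 0.05; the fit was tested on simulated data. The planned test depended on the unit, and for these scaled values it was limma. Each library is 1 mouse, and the replicate error is that between mice. A marker of the rod list is not reported here and was left out of that list. The members and lists were chosen with earlier results of these data known. Named genes were the members, Gpnmb, up to 4 passing genes of lowest p per list (Pkd1, Tmem63c, Tmem87a and Kcnk2 for channels), and the 3 closest genes per member; Tead2, Tead3, Tead4, Piezo2, Amotl1, Lrrc8a, Dock5, Ccdc80, Rock1 and Fos were named after their values were seen. Other settings were pseudocounts of 0.1 and 5, other scalings and filters, sample weights, marker means as covariates, subsets of controls, and leaving out each library; the length and GC trend was a spline of 5 degrees of freedom each, removed per library. Titles number samples 1 to 5 in both strains, but same-numbered libraries did not deviate together (correlations from -0.082 to 0.015). No pair of libraries had a correlation above 0.9653, so none was counted as a duplicate.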

Additional observations from a re-analysis of the deposited data

Results flagged for a closer look

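In control veins, Tead1 in sample 1 stood at 104 scaled counts, apart from the other controls at 166 to 188, a gap larger than Dixon's test allows for 5 samples on the log2 scale. It was 1 of 20 member and strain combinations checked, and chance flags about 1 in 20. Without that library the Tead1 difference between DBA/2J and control was -0.53 (adjusted p = 0.0967, limma), against -0.38 with it.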

How the results depend on the processing

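Counts of members and of the whole table both moved with the setting. With so few members, each call is a large part of their count. Members higher numbered 5 when libraries were scaled to their own total or to the total without lens genes, 6 without DBA/2J samples 1 and 4 (chosen after seeing the data), 1 against control samples 1 to 3 alone, and 0 against controls 4 and 5 alone, after removal of the length and GC trend (1 lower), with the lens or Muller glia mean as covariate and with the replicate block (limma; at an unadjusted p under 0.05 these 5 settings gave 3, 2, 4, 0 and 4 members higher). Leaving out 1 library at a time gave 1 to 5 members higher (1 without control sample 3 or 4, 5 without DBA/2J sample 2), 2286 to 3985 genes higher and 1235 to 2335 lower. Over all genes, 3518 were higher and 2101 lower as deposited. The counts were 5428 and 1308 when scaled to own totals (median difference of all genes 0.1944, against 0.0472), 1527 higher after length and GC removal, 1 and 9 with the lens mean, 1757 higher with the Muller glia mean, 1408 and 1057 with the replicate block, 1372 lower against controls 1 to 3 and 1684 and 734 against controls 4 and 5. The block drops DBA/2J samples 6 to 9 from the contrast; same-numbered libraries were not paired in these data, so its calls are not read as weaker effects. Among the list genes, 31 were higher as deposited and 0 lower, against 14 higher after length and GC removal, with the Muller glia mean and with the replicate block, 15 against controls 4 and 5 and 0 with the lens mean. Lower list genes numbered 1 with the stricter filter, lens-free scaling, quantile normalization and the replicate block, 2 with the pan-endothelial or mural mean, 5 after length and GC removal, 6 with the Muller glia mean, and 0 to 1 with 1 library left out. Directions reversed in some settings for Piezo1, Trpv4 and Ankrd1, and for no other member. Piezo1 was at -0.16, -0.0402, -0.49, -0.10 and -0.12 (pan-endothelial, lens and Muller glia means, replicate block, controls 1 to 3). Trpv4 was at -0.11 after quantile normalization and also -0.11 after length and GC removal, at -0.21, -0.0947 and -0.50 (pan-endothelial, mural and Muller glia means), -0.22 (replicate block) and -0.0466 (controls 1 to 3), with -0.0376 to 0.22 over leave-outs. Ankrd1 was at -0.11, -0.33, -0.26 and -0.025 (pan-endothelial, lens and Muller glia means, replicate block). The cause of these changes was not tested. Ankrd1 and Tead1 had the fewest estimated reads of the members.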
